A study of Mus musculus with 45 samples.

Results

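The genes described here are 9 markers of meningeal fibroblasts and of mural cells, the pericytes and smooth muscle cells that wrap blood vessels: Col1a1, Col1a2, Col3a1, Dcn, Lum, Foxc1, Twist1, Pdgfrb and Postn. They are 9 of the 53491 genes in the tables, and all 9 were found. They were selected on measured values, because Col3a1 was among the steepest falls between stages, so the levels at E11.5 and E14.5 are given as a description without a test. The cells were primary cultures from wild-type (WT) mouse cortex, each pool holding 7 embryos at E11.5 and 2 embryos at E14.5 or E16.5, with 3 pools (A, B and C) per stage. All cultures were labelled with 100 uM 4-thiouridine (4sU) for 20 h, and each pool was divided over 5 wells that were collected after 0, 2, 4, 8 or 12 h of chase with 5 mM uridine. Every library therefore comes from labelled cells in a medium for neural progenitors with bFGF, and none from fresh tissue. Incorporated 4sU reads as a T-to-C conversion in sequencing (SLAM-seq), so each of the 45 libraries gives a level in CPM, the reads of a gene per megaread (M reads) of its library, and a conversion rate per gene.

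Fibrillar collagens are assembled from procollagen chains that fibroblasts secrete, and small leucine-rich proteoglycans bind the fibrils and set their spacing. In the embryonic head, the mesenchyme over the forebrain forms the meninges, and pericytes come to the growing vessels through the receptor that Pdgfrb encodes. Neurons and radial glia are not known for making fibrillar collagen, so these genes are commonly used to mark non-neural cells in cortical samples. The 9 genes cover these roles. Col1a1 and Col1a2 encode the chains of type I collagen and Col3a1 that of type III collagen. Dcn and Lum encode the proteoglycans decorin and lumican, and Postn encodes the matrix protein periostin. Foxc1 and Twist1 encode transcription factors of the cranial mesenchyme.

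All 9 are protein-coding genes, with positions from GENCODE on GRCm38, the assembly also named mm10. Col3a1 (ENSMUSG00000026043) lies on chromosome 1 from 45311538 to 45349706, and a miRNA gene, Gm47302, lies in its exons on the same strand. Col1a1 (ENSMUSG00000001506) lies on chromosome 11 from 94936224 to 94953042. Col1a2 (ENSMUSG00000029661) lies on chromosome 6 from 4504814 to 4541544. Dcn and Lum are neighbours on chromosome 10, with 47.0 kb between the end of Dcn and the start of Lum, yet they moved in opposite directions between E11.5 and E14.5. The promoters of 5 of the 9 genes were in the RefSeq table used here. Those of Col3a1, Col1a2 and Postn are shown because these 3 genes were low at E14.5 and, among the E16.5 pools, highest in pool B at all 5 chase times. The windows of Foxc1 and Twist1, highest in pool B at 3 of the 5 times, are not shown. Each window runs from 250 bases before to 50 bases after the RefSeq start, on GRCm38.p6, plus strand, 5′ to 3′. Capitals mark matches, on either strand, to the E-box CANNTG, the CCAAT box and the TATAAA box.
Col3a1 promoter, chr1:45311288-45311587: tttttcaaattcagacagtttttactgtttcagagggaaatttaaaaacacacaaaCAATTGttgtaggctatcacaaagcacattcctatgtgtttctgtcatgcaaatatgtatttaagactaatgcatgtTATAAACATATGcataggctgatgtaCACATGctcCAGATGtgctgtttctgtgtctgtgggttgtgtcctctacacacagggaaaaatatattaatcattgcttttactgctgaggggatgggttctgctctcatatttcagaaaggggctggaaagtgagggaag
Col1a2 promoter, chr6:4505368-4505667: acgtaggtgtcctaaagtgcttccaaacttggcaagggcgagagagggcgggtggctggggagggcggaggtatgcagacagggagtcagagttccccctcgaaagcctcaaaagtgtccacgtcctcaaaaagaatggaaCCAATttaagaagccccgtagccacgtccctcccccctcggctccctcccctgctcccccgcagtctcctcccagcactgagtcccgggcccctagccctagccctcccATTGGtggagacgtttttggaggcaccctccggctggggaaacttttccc
Postn promoter, chr3:54360857-54361156: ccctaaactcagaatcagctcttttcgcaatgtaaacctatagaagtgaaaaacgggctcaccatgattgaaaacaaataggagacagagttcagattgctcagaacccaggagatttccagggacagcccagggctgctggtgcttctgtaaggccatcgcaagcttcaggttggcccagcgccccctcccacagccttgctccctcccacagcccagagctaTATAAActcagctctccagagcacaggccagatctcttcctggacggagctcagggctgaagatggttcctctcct
The Col3a1 window held 4 E-boxes, 1 of them next to its TATAAA match, and no CCAAT. The Col1a2 window held 2 CCAAT matches and no E-box. The Postn window held only a TATAAA match, which starts 26 bases before the start site. Of 32851 RefSeq promoter windows of this length, 72.3% held the E-box, 37.4% the CCAAT box and 13.6% the TATAAA box. Col3a1 and Postn thus shared the TATAAA box, none of the 3 motifs was in all 3 windows, and a letter match is a description and not a binding site. Postn has another RefSeq start, not shown.

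The libraries held 15.9 to 43.9 M reads summed over genes, and the deposited CPM scales to a larger total. On that scale 3 reads, the level that a count of 0 still allows, corresponded to 0.0622 to 0.169 CPM. These limits cover counting error only. Gm42418, a gene that overlaps the ribosomal RNA repeat, took 29686 to 67623 CPM in the 3 E11.5 libraries at 12 h, against at most 9482 CPM in the other E11.5 libraries. At E14.5 it took 14846 and 20507 CPM in pools A and B at 2 h and 18081 CPM in pool C at 8 h, against 2253 to 3189 CPM at 0 h. Its part in the chase values was not tested. The E16.5 pool B stood apart from pools A and C for several of the 9 genes, and the E16.5 levels that rest on it are also given without it.

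The fibrillar collagen RNAs had their highest levels at E11.5 and measured under 3 CPM at E14.5 and 0 h. Col3a1 measured 242, 359 and 279 CPM in pools A, B and C at E11.5 and 0 h. It measured 1.57, 1.75 and 2.04 CPM at E14.5, and 3.20, 7.32 and 2.38 CPM at E16.5. The E11.5 mean was 293 ± 59.6 CPM (SD, n = 3), which is 164 times that of E14.5 and 68.2 times that of E16.5. Col1a1 measured 87.2, 156 and 94.6 CPM at E11.5, then 2.63, 2.70 and 1.96 CPM at E14.5, then 1.52, 5.66 and 1.47 CPM at E16.5. Col1a2 measured 55.6, 86.1 and 74.8 CPM at E11.5, then 0.616, 0.297 and 0.617 CPM at E14.5, then 0.761, 4.93 and 0.614 CPM at E16.5. For each of these 3 collagen genes the lowest of the 15 E11.5 libraries lay above the highest of the 30 later ones, and E16.5 pool B lay above all other E14.5 and E16.5 pools.

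The 2 proteoglycans parted. Lum measured 39.9, 55.6 and 43.7 CPM at E11.5, 0.255, 0.396 and 0.429 CPM at E14.5, and 2.32, 2.11 and 1.18 CPM at E16.5. Dcn measured 2.50, 2.84 and 2.81 CPM at E11.5, 8.96, 7.22 and 8.43 CPM at E14.5, and 5.67, 5.88 and 4.81 CPM at E16.5. Lum thus had its lowest 3 values at E14.5, where Dcn had its highest 3, and at 0 h neither gene's stages overlapped. The mean of Dcn at E14.5 was 3.02 times that at E11.5, while the mean of Lum at E11.5 was 129 times that at E14.5.

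Pdgfrb, the receptor on pericytes, measured 33.4, 38.6 and 28.3 CPM at E11.5, 5.01, 3.36 and 4.70 CPM at E14.5, and 3.20, 5.02 and 2.51 CPM at E16.5. Its later stages overlapped each other, and both lay below E11.5. Postn measured 3.05, 3.22 and 2.61 CPM at E11.5, 0.382, 0.396 and 0.590 CPM at E14.5, and 1.03, 2.80 and 0.935 CPM at E16.5. Its E16.5 pool B reached into the E11.5 range. Twist1 measured 1.45, 1.49 and 1.31 CPM at E11.5, 0.276, 0.132 and 0.161 CPM at E14.5, and 0.533, 0.450 and 0.588 CPM at E16.5, with no overlap between stages. Foxc1 measured 2.43, 2.79 and 3.54 CPM at E11.5, 0.106, 0.0989 and 0.107 CPM at E14.5, and 0.0761, 0.332 and 0.294 CPM at E16.5. The 3 E14.5 libraries at 0 h held only 12 Foxc1 reads together, with an exact 95% Poisson interval of 6.20 to 20.96 reads. Foxc1 had 0 reads in E14.5 pool C at 12 h, which allows up to 0.0807 CPM, and Twist1 had 0 reads in E14.5 pool C at 8 h, which allows up to 0.169 CPM.

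**Figure D1:**
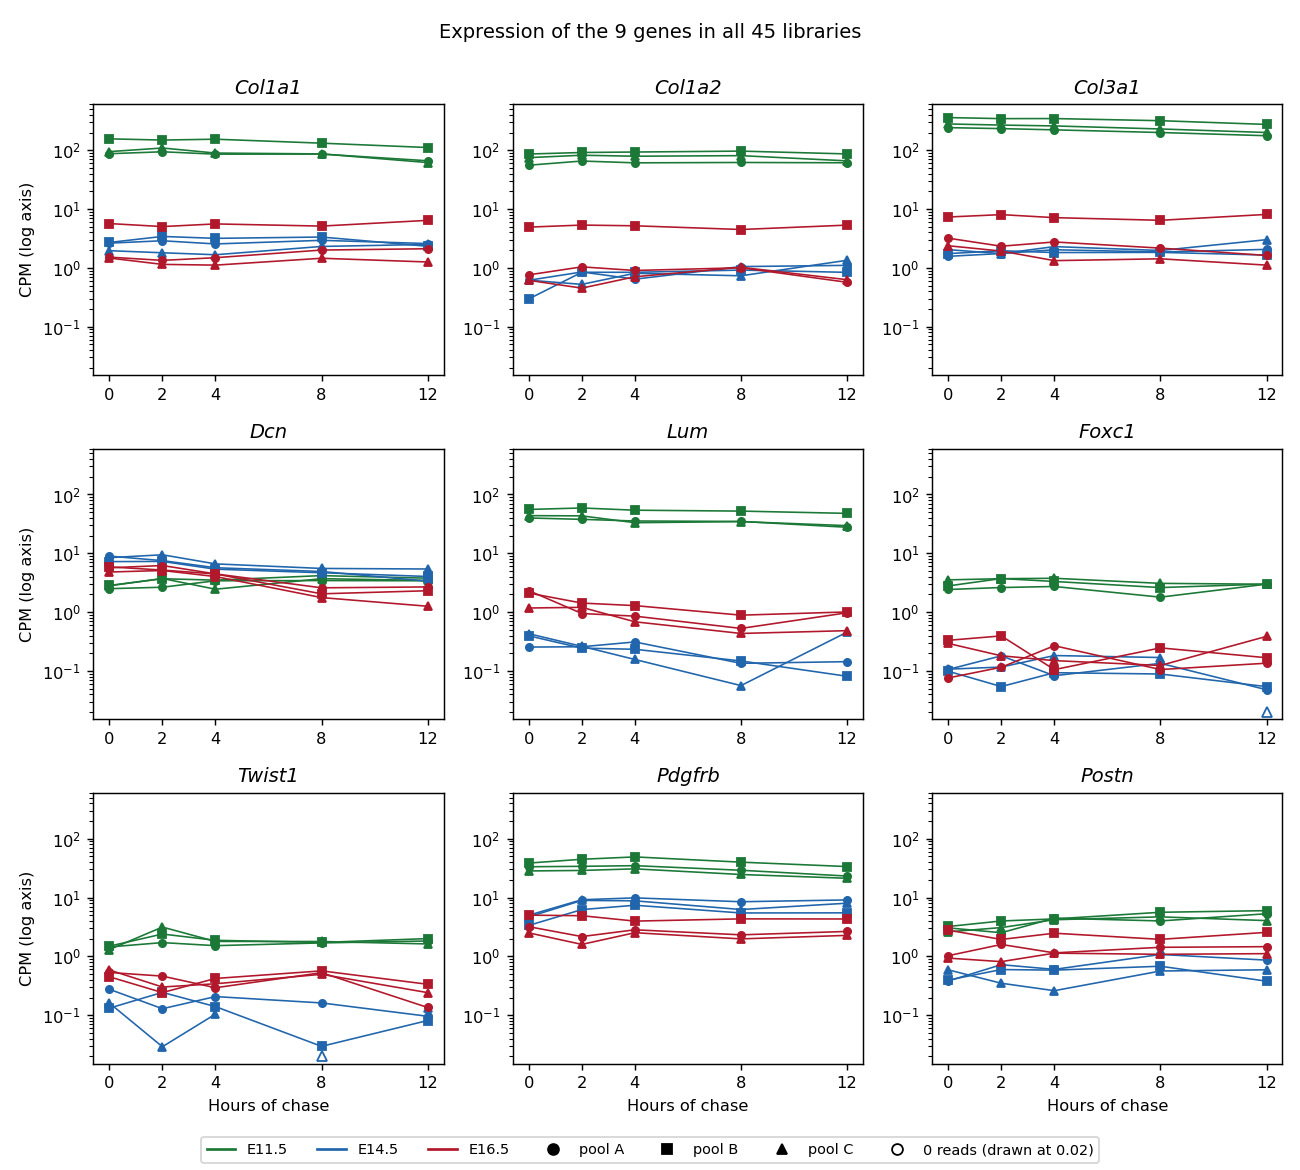
CPM (log axis) of the 9 genes against hours of chase, one line per pool, with stages in colours and pools A, B and C as circles, squares and triangles; open symbols are libraries with 0 reads, drawn at 0.02. E11.5 lies above the later stages for 7 of the 9 genes in all libraries, Dcn crosses between stages during the chase, and E16.5 pool B lies above pools A and C for Col1a1, Col1a2, Col3a1, Pdgfrb and Postn at all 5 times.

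In the model fitted over all 18408 genes tested, the log2 change at E14.5 against E11.5 was -7.22 for Col3a1, -6.97 for Col1a2, -6.97 for Lum and -5.42 for Col1a1. It was -4.48 for Foxc1, -2.87 for Twist1, -2.86 for Pdgfrb, -2.52 for Postn and 1.65 for Dcn. Of the 9 genes, 8 were lower by more than 2-fold and 1 was higher, where 9.1% and 8.77% of all genes tested were lower or higher by that much. These values chose the genes and are a description. In bulk samples, fewer cells of a type and less RNA per cell cannot be told apart.

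Between genes, levels were compared as reads per kb of annotated exon, scaled to library size as CPM is (CPM per kb). At E11.5 the order was Col3a1 (29.9 ± 6.07, SD, n = 3), Lum (19.0 ± 3.36), Col1a1 (17.2 ± 5.75), Pdgfrb (6.10 ± 0.934), Col1a2 (5.81 ± 1.24), Twist1 (0.869 ± 0.0589), Foxc1 (0.499 ± 0.0970), Dcn (0.465 ± 0.0316) and Postn (0.340 ± 0.0360). The neighbours Lum and Col1a1, Pdgfrb and Col1a2, and Foxc1 and Dcn overlapped over the 3 pools. At E14.5 Dcn came first with 1.41 ± 0.152 CPM per kb, followed by Pdgfrb with 0.795 ± 0.160 and Col1a1 with 0.371 ± 0.0626, and these 3 did not overlap. Col3a1, first at E11.5, had rank 4 at E14.5 with 0.182 ± 0.0241 CPM per kb. At E16.5 Dcn again came first with 0.934 ± 0.0972, and every gene overlapped the next one in the order.

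E16.5 was compared with E14.5 to ask whether the genes stayed low after the fall. This comparison shares the E14.5 libraries with the selection, so low values in these libraries favour a rise at E16.5. Its p-values carry that limit. In the edgeR quasi-likelihood test with Benjamini-Hochberg adjustment over all genes, 5 of the 9 genes were higher at E16.5 at an adjusted p under 0.05 and more than 2-fold, where 7.19% of all genes tested passed in that direction, and none was lower, where 5.92% passed. At an unadjusted p under 0.05 and with no limit on the fold, Dcn was the only one of the 9 that was lower. Lum rose most, by a log2 change of 2.42 (SE 0.26, adjusted p = 8.1e-06), and Twist1 rose by 1.47 (SE 0.28, adjusted p = 0.00083). Without E16.5 pool B, these changes were 2.31 (adjusted p = 3.4e-05) for Lum and 1.52 (adjusted p = 0.0022) for Twist1. Twist1 rested on 4 to 13 reads per library at E14.5 and 14 to 22 at E16.5, so its rise is limited by depth. The test counted covered Ts, several per read, so the SE and adjusted p of Twist1 may be too small.

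The rise of the other 3 rested on pool B for its size. Col1a2 rose by a log2 change of 1.97 (SE 0.66, adjusted p = 0.024) in the edgeR test, and the change was 0.29 (adjusted p = 0.49) without pool B. With the pool letter as a replicate block, the adjusted p of Col1a2 was 0.093, although letters mark different embryos across stages. Col3a1 rose by 1.195 (SE 0.34, adjusted p = 0.011), against 0.52 (adjusted p = 0.046) without pool B. Postn rose by 1.74 (SE 0.41, adjusted p = 0.0033), against 0.97 (adjusted p = 0.014) without pool B, where it no longer reached 2-fold.

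The remaining 4 genes did not pass both limits. Dcn had a log2 change of -0.54 (SE 0.14, adjusted p = 0.0052), which is below the adjusted p but under 2-fold. Foxc1 had a change of 1.13 (SE 0.58, adjusted p = 0.13), Col1a1 of 0.19 (SE 0.41, adjusted p = 0.73) and Pdgfrb of -0.28 (SE 0.23, adjusted p = 0.34). For Col1a1 the sign turned without pool B, to -0.71 (adjusted p = 0.030), since pools A and C lay below all 3 E14.5 pools at 0 h. The median change over the 9 genes was 1.195, against -0.0018 over all genes tested, and it was 0.52 without pool B. This median is a description, since the genes were chosen with the E14.5 libraries in view.

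**Figure D2:**
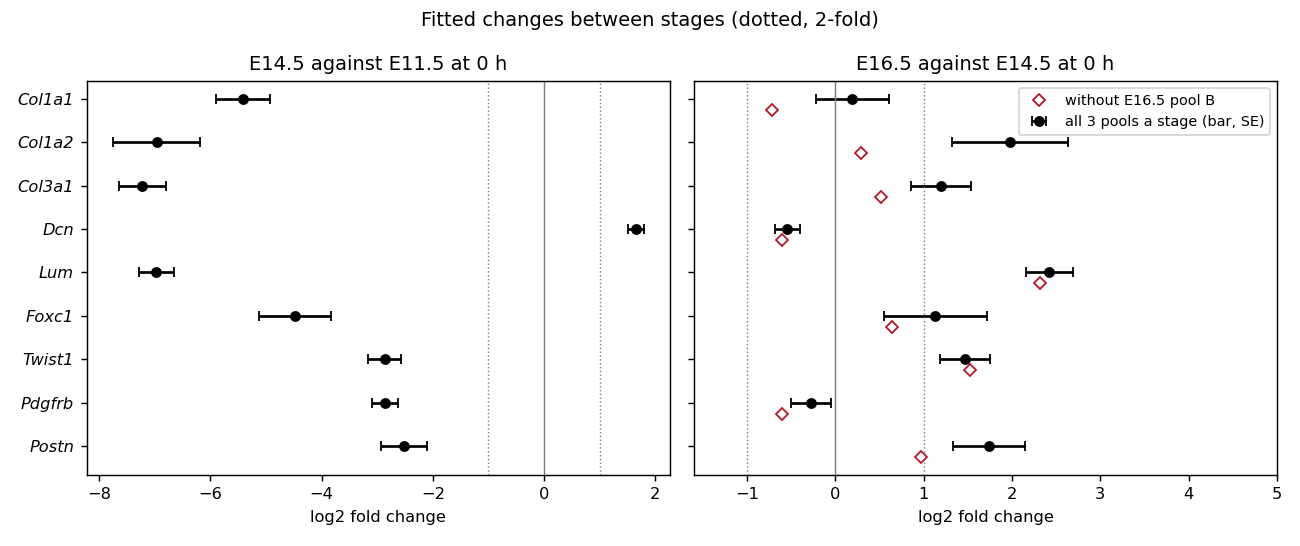
Fitted log2 fold changes of the 9 genes at 0 h, E14.5 against E11.5 (left) and E16.5 against E14.5 (right); black points use all 3 pools per stage with bars of 1 SE, red diamonds leave out E16.5 pool B, and dotted lines mark 2-fold. Dcn is the only gene above 0 on the left. On the right, Lum and Twist1 stay above 2-fold without pool B, whereas Col1a2 moves from 1.97 to 0.29.

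Pool B was followed over the chase. Averaged over its 5 libraries, E16.5 pool B held 5.06 CPM of Col1a2, which is 6.56 times the mean of pools A and C. The ratio was 3.73 for Col1a1, 3.66 for Col3a1, 2.00 for Postn and 1.88 for Pdgfrb, and pool B was the highest pool at all 5 times for these 5 genes, although the ratio varied between times, from 2.63 to 5.91 for Col3a1 and from 4.43 to 8.90 for Col1a2. The average ratio was 1.40 for Lum, 1.36 for Foxc1, 1.03 for Twist1 and 1.03 for Dcn. The 5 wells of a pool share their embryos, so these are not 5 replicates. At E11.5, pool B was likewise the highest for 7 of the 9 genes, with ratios between 1.14 and 1.63 for those 7, although its letter marks other embryos.

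The other marker lists showed how far these changes were shared. Among 30 further genes of the fibroblast matrix and of collagen processing, the summed level without the 9 genes was 1665 to 1839 CPM at E11.5, 627 to 741 CPM at E14.5 and 546 to 643 CPM at E16.5. Of the 25 that could be tested, 15 were lower by more than 2-fold at E14.5 compared with E11.5, with 0 higher. Their median log2 change was -1.17, against -4.48 for the 9 genes and -0.0069 for all genes tested. The most abundant were Serpinh1, the collagen chaperone, with 396 ± 26.9 CPM at E11.5 and 169 ± 27.9 CPM at E14.5, Sparc with 315 ± 37.3 and 106 ± 5.79 CPM, and Fn1, fibronectin, with 253 ± 15.98 and 105 ± 12.8 CPM (SD, n = 3 each). These 3 kept a larger share of their level than any of the 3 collagens described above. At E16.5 against E14.5, 5 of the 25 rose and 1 fell in the edgeR test, and without pool B the counts were 2 and 2. Serpinh1 fell by a log2 change of -1.11 (SE 0.11), while Fn1 measured 161 ± 24.6 CPM.

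The mural list of 18 genes, without Pdgfrb, summed to 157 to 170 CPM at E11.5, 34.8 to 43.3 CPM at E14.5 and 35.8 to 44.9 CPM at E16.5. Of 12 tested, 11 were lower by more than 2-fold at E14.5 and 1 was higher, with a median log2 change of -1.97. Mcam, an adhesion molecule of vascular cells, fell further at E16.5, from 12.3 ± 0.955 to 5.20 ± 0.449 CPM (log2 change -1.24, SE 0.10). Notch3, a receptor of vascular smooth muscle, measured 60.9 ± 9.57, 16.49 ± 2.23 and 13.8 ± 1.85 CPM at the 3 stages, and Acta2, smooth muscle actin, 18.1 ± 8.12, 1.64 ± 0.249 and 3.48 ± 1.65 CPM. At E16.5 against E14.5, 4 of the 12 rose, among them Acta2 by 1.10 (SE 0.31, edgeR adjusted p = 0.011), and 1 fell. Without pool B, 3 rose and 1 fell. The pericyte marker Higd1b had 0 reads in all 9 libraries at 0 h, which at this depth allows a low level.

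The list of 30 genes of mesenchyme and meninges summed to 244 to 263 CPM at E11.5, 109 to 130 CPM at E14.5 and 77.8 to 82.3 CPM at E16.5. Of 14 tested, 8 were lower by more than 2-fold at E14.5 compared with E11.5, with 1 higher. Crabp2, a carrier of retinoic acid, measured 43.6 ± 8.22 CPM at E11.5, 1.87 ± 0.240 CPM at E14.5 and 0.459 ± 0.110 CPM at E16.5. S100a6 measured 26.3 ± 6.88, 3.97 ± 1.08 and 2.10 ± 1.61 CPM. Zic1, a transcription factor, measured 69.1 ± 3.71, 24.0 ± 3.22 and 10.1 ± 2.15 CPM. At E16.5 against E14.5, 6 of the 14 fell and 4 rose in the edgeR test, and without pool B 7 fell and 2 rose. Slc22a6, a transporter used as a meningeal marker, had 0 reads at 0 h at all 3 stages. The labels name cortex and no meninges, no cells were sorted, and the cells that held these RNAs cannot be told apart in the tables.

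In the PDGF pathway, the ligands, receptors and signalling proteins besides Pdgfrb summed to 703 to 743 CPM at E11.5, 818 to 846 CPM at E14.5 and 910 to 931 CPM at E16.5. Of 11 tested, 2 were lower by more than 2-fold at E14.5 compared with E11.5, with 0 higher. The 2 were the receptor gene Pdgfra and the adaptor gene Shc1. At E16.5 against E14.5, 3 rose and 0 fell in the edgeR test, and without pool B 2 rose. The 3 that rose with all pools were the ligand genes Pdgfa and Pdgfb and the receptor gene Pdgfra. The adaptor Grb2 measured 75.7 ± 3.99, 107 ± 1.64 and 158 ± 4.38 CPM, whereas the phosphatase Ptpn11 measured 238 ± 8.65, 208 ± 10.8 and 191 ± 2.27 CPM, and the phospholipase Plcg1 164 ± 8.48, 186 ± 2.14 and 186 ± 5.74 CPM.

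Markers of other cell types moved at the same time. The erythroid list summed to 1807 to 3932 CPM at E11.5, 91.0 to 149 CPM at E14.5 and 87.8 to 208 CPM at E16.5. Hbb-y, an embryonic globin, measured 1745 ± 748, 16.7 ± 4.98 and 0.176 ± 0.219 CPM (SD, n = 3 each). The later globin genes Hba-a1 and Hbb-bs measured 337 ± 124, 28.4 ± 3.66 and 39.7 ± 16.8 CPM, and 123 ± 27.4, 65.0 ± 21.3 and 86.2 ± 40.2 CPM. The endothelial list summed to 124 to 129, 58.0 to 61.2 and 37.9 to 40.2 CPM. Most of this sum was Slc2a1, the glucose transporter, with 119 ± 2.97 CPM at E11.5, whereas Cdh5, the endothelial cadherin, measured 1.16 ± 0.349, 0.384 ± 0.304 and 0.635 ± 0.226 CPM, and Egfl7 1.22 ± 0.274, 0.496 ± 0.0623 and 0.464 ± 0.148 CPM. The cartilage list summed to 40.3 to 41.3, 10.9 to 21.5 and 5.02 to 5.71 CPM, and Col2a1, type II collagen, measured 31.5 ± 1.37, 6.21 ± 0.828 and 0.821 ± 0.249 CPM. Not all of that list moved this way, since Matn4 measured 2.75 ± 0.923, 6.85 ± 4.24 and 1.51 ± 0.142 CPM, and Acan 1.46 ± 0.264, 1.45 ± 0.341 and 1.11 ± 0.117 CPM. The neural crest and Schwann cell list summed to 23.0 to 26.8, 6.36 to 7.95 and 14.1 to 15.9 CPM. Its gene Sox10 measured 0.270 ± 0.138, 0.0771 ± 0.00992 and 2.69 ± 0.807 CPM, while Ets1 measured 10.2 ± 1.24, 4.69 ± 0.624 and 10.1 ± 0.364 CPM and Erbb3 4.87 ± 0.835, 0.641 ± 0.214 and 0.427 ± 0.163 CPM.

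The microglia list summed to 12.9 to 17.3, 17.2 to 18.8 and 20.1 to 27.6 CPM. Its genes Cd68, Tyrobp and C1qa measured 2.81 ± 0.348, 1.21 ± 0.202 and 0.972 ± 0.297 CPM at E11.5, and 5.76 ± 0.394, 2.56 ± 0.423 and 1.37 ± 0.436 CPM at E16.5. The surface ectoderm list summed to at most 1.38 CPM and the skeletal muscle list to at most 2.31 CPM in any library at 0 h. Their leading genes Epcam, Cldn6 and Krt15, and Tnnt1, Myod1 and Myl4, each had stage means of at most 1.38 CPM. The cortical neural list, with Neurod6, Lhx2 and Tbr1 as its most abundant genes, summed to 1268 to 1338, 1572 to 1717 and 1487 to 1511 CPM, so the labelled tissue was present at all stages. Within this sum the genes moved apart. Neurod6 measured 100 ± 4.21, 858 ± 84.8 and 742 ± 22.6 CPM, and Lhx2 579 ± 49.2, 312 ± 25.5 and 279 ± 13.8 CPM. Tbr1 measured 257 ± 24.4, 281 ± 21.1 and 355 ± 17.7 CPM. The median log2 change of the list was -0.73 at E14.5 against E11.5. In E16.5 pool B, the summed level over the mean of pools A and C was 2.09 for the 9 genes, 1.16 for the matrix list, 1.198 for the mural list, 1.02 for the mesenchyme list, 1.03 for the endothelial list, 0.825 for the erythroid list and 1.27 for the microglia list. The part of the other cell types in the changes of the 9 genes was not tested, and the number of embryos per pool cannot be told apart from stage between E11.5 and E14.5.

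**Figure D3:**
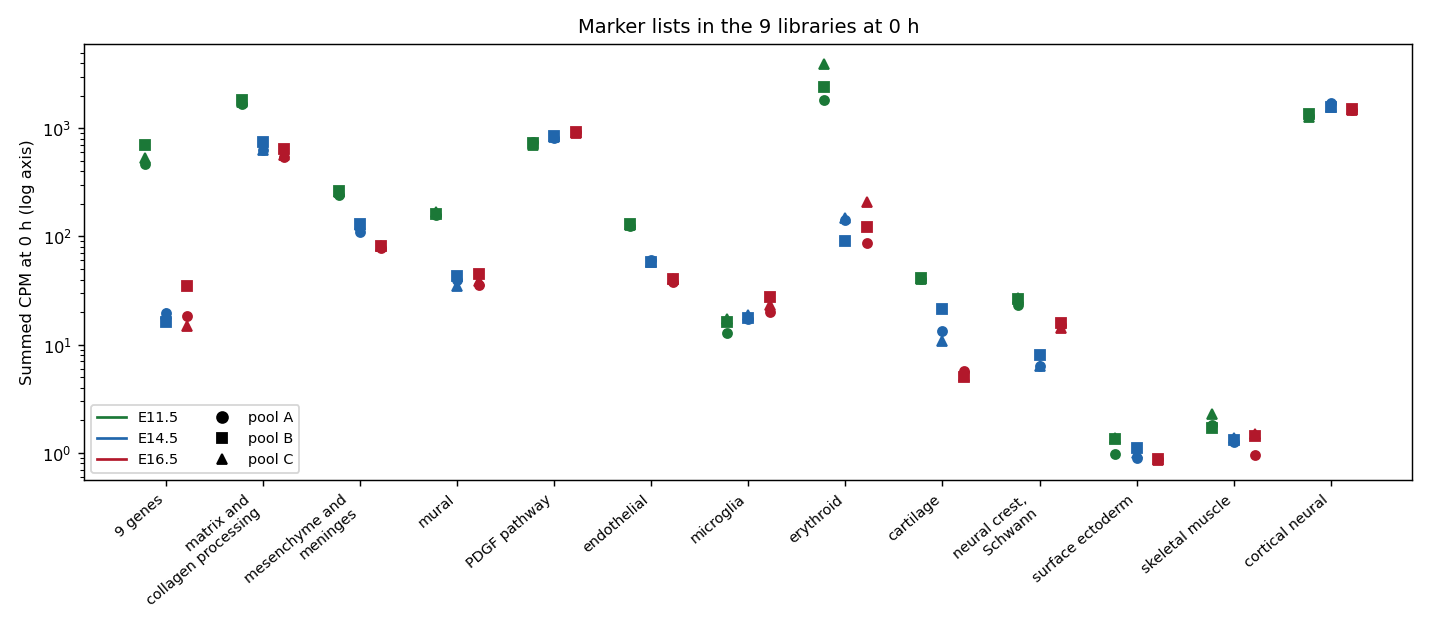
Summed CPM at 0 h (log axis) of the 9 genes and of 12 marker lists, 1 symbol per library, with stages in colours and pools as symbols; the lists leave out the 9 genes. The 9 genes fall from between 467 and 705 CPM at E11.5 to between 16.4 and 19.8 CPM at E14.5, and the erythroid list falls alongside. The cortical neural list stays between 1268 and 1717 CPM as a sum, within which its genes moved in different directions.

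The genes whose log2 level followed the mean of the 9 genes most closely over the 45 libraries were Bgn (r = 0.992), Col6a3 (0.991), Cdh6 (0.985), Pcolce (0.983), Ctsk (0.983), Cped1 (0.981), Alx4 (0.981), Nid1 (0.9797), Loxl2 (0.9797) and Lrrc15 (0.979). These are Pearson correlations over libraries that share 3 stages and 9 pools, and they describe mostly the difference between E11.5 and the rest. Bgn, which encodes biglycan, another small proteoglycan, measured 46.4, 2.20 and 3.27 CPM as stage means at 0 h. Lrrc15 at 0 h measured 5.16 CPM at E11.5, had no read at E14.5 and measured 0.0395 CPM at E16.5. Among the 9 genes, the correlation of each with the mean of the other 8 ran from 0.865 for Pdgfrb to 0.996 for Col3a1, except for Dcn with -0.41.

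The chase libraries showed whether the levels held in culture after labelling. At E11.5, 2 of the 9 genes differed between 12 h and 0 h in the edgeR test at an adjusted p under 0.05, where 18.5% of all genes tested did. Postn measured 5.31, 5.99 and 4.06 CPM at 12 h, above its 3 values at 0 h, and rose by a log2 change of 1.01 (SE 0.17, adjusted p = 0.0025). Dcn measured 3.41, 3.78 and 3.46 CPM at 12 h and rose by 0.63 (SE 0.15, adjusted p = 0.015). The call on Dcn was lost without 0 h pool A, 12 h pool B or 12 h pool C, with adjusted p between 0.051 and 0.058. With the pool as a block, which the division of each pool over 5 wells gives, 7 of the 9 passed, where 33.9% of all genes did. The added genes moved little, with log2 changes of -0.30 (adjusted p = 0.00017) for Col1a1, -0.26 (adjusted p = 0.00061) for Col3a1, -0.26 (adjusted p = 0.0042) for Lum, -0.21 (adjusted p = 0.043) for Pdgfrb and 0.17 (adjusted p = 0.023) for Col1a2.

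At E14.5, 2 of 8 tested genes differed, where 11.9% of all genes did, and Foxc1 was too low to test. Dcn fell to 3.36, 4.04 and 5.41 CPM at 12 h, with a log2 change of -0.88 (SE 0.19, edgeR adjusted p = 0.013). Pdgfrb rose from 5.01, 3.36 and 4.70 CPM to 9.12, 5.50 and 8.02 CPM, by 0.76 (SE 0.21, adjusted p = 0.040). The call on Pdgfrb held only without 12 h pool B among the 6 fits that each left out 1 library, and that on Dcn was lost in this same fit (adjusted p = 0.054). All 3 pools had already risen at 2 h, to 9.18, 6.25 and 8.94 CPM. Gm42418 was high in pools A and B at 2 h and stood at 2351 CPM in pool C, and its part in the rise of Pdgfrb was not tested. With the pool as a block, the 2 h change of Pdgfrb was 0.91 (SE 0.10, adjusted p = 0.00020), where 6.42% of all genes passed in that direction. Without the block it was 0.90 (adjusted p = 0.13). The block also added Col1a2, with 1.11 (SE 0.34, adjusted p = 0.025) at 12 h, making 3 of 8 where 20.8% of all genes passed, and Col1a2 rested on 9 to 29 reads per library at 0 h.

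At E16.5, 2 of the 9 genes differed, where 24.5% of all genes did, and both fell. Dcn went from 5.67, 5.88 and 4.81 CPM to 2.68, 2.31 and 1.26 CPM, a log2 change of -1.34 (SE 0.26, edgeR adjusted p = 0.0050). Lum went from 2.32, 2.11 and 1.18 CPM to 0.975, 1.01 and 0.484 CPM, a change of -1.15 (SE 0.35, adjusted p = 0.037). The pools of Lum did not overlap between the times, although its call was lost without pool A at 0 or 12 h, pool B at 0 h or pool C at 12 h. With the pool as a block 3 of the 9 passed, where 35.8% of all genes did, and the added one was Col3a1 with -0.53 (SE 0.19, adjusted p = 0.033). At 2 h, Lum stood at -0.70 (SE 0.21, adjusted p = 0.030) with the block, where 7.2% of all genes passed in that direction. Twist1 had changes of -1.203 (adjusted p = 0.13) at E14.5 and -1.10 (adjusted p = 0.092) at E16.5, and passed in neither.

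The differences between stages in this 12 h change were tested for 8 of the 9 genes, all but Foxc1, with the pool as a block (edgeR). Between E14.5 and E11.5, 3 of the 8 passed, Col1a2, Dcn and Pdgfrb, where 12.0% of all genes tested did. Between E16.5 and E14.5, 2 passed, Col1a2 and Pdgfrb, where 3.9% did. Between E16.5 and E11.5, 2 passed, Dcn and Lum, where 16.3% did.

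The conversion rate is a share of each gene's own covered Ts. It falls as labelled RNA is lost and also as new, unlabelled RNA is added. For a usable rate a gene needed more than 500 sequenced T positions (covered Ts) in a library, and 7 of the 9 genes had them in all 15 libraries of E11.5, compared with 3 genes for E14.5 and 1 for E16.5. A half-life was kept where the exponential fit gave a value between 0 and 24 h and an R2 over 0.6 in all 3 pools. That left Col1a2, Dcn, Lum and Pdgfrb at E11.5 and only Pdgfrb at E14.5 and E16.5. The median over all genes kept came to 4.43 h for E11.5, 4.60 h for E14.5 and 3.48 h for E16.5.

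At E11.5 the half-lives of Col1a2 and Lum lay above those of Pdgfrb in every pool. Col1a2 had half-lives of 16.2, 13.9 and 9.70 h in pools A, B and C, a mean of 13.3 ± 3.31 h (SD, n = 3), above 99.3% of the 10858 genes kept. Its mean and its values in pools A and B exceed the 12 h chase. The kept set leaves out genes with a fit of 24 h or more, so it is cut at the slow end. Lum had half-lives of 8.19, 7.44 and 10.3 h, a mean of 8.64 ± 1.48 h, above 95.3% of genes. Dcn had 8.08, 10.2 and 3.91 h, a mean of 7.41 ± 3.21 h, above 91.5% of genes, although its pools differed by more than 2-fold and pool C lay below the median of 4.43 h. Pdgfrb had 4.40, 4.00 and 4.29 h, a mean of 4.23 ± 0.207 h, near the middle of all genes.

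The 2 other collagens and Postn were left out of the kept set for being slow or uneven, not for low coverage. Col1a1 gave 25.8 h in pool A, with an R2 of 0.462, and 17.0 and 10.9 h in pools B and C. Col3a1 gave 17.3 h in pool A, 54.2 h with an R2 of 0.435 in pool B, and 15.1 h in pool C. Fits past 24 h exceed the chase of 12 h and were not read as values. Postn gave 27.9 and 24.4 h in pools A and B and 5.72 h in pool C. A measure that needs no fit is the share of the 0 h rate still present at 12 h. That share was 53.0, 80.8 and 51.6% for Col3a1 in pools A, B and C, 54.0, 51.7 and 43.1% for Col1a1, and 62.9, 51.5 and 32.8% for Col1a2. The median gene of the same libraries kept 22.2, 23.4 and 16.4%, and the 3 collagens stood above at least 89.8% of genes in each pool. Postn kept 59.7, 75.1 and 27.5%. Lum kept 24.0, 30.0 and 30.4% and Pdgfrb 27.6, 21.8 and 30.5%, so these 2 overlapped on this measure. Dcn kept 24.8, 57.9 and 15.7%, below the median gene in pool C.

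**Figure D4:**
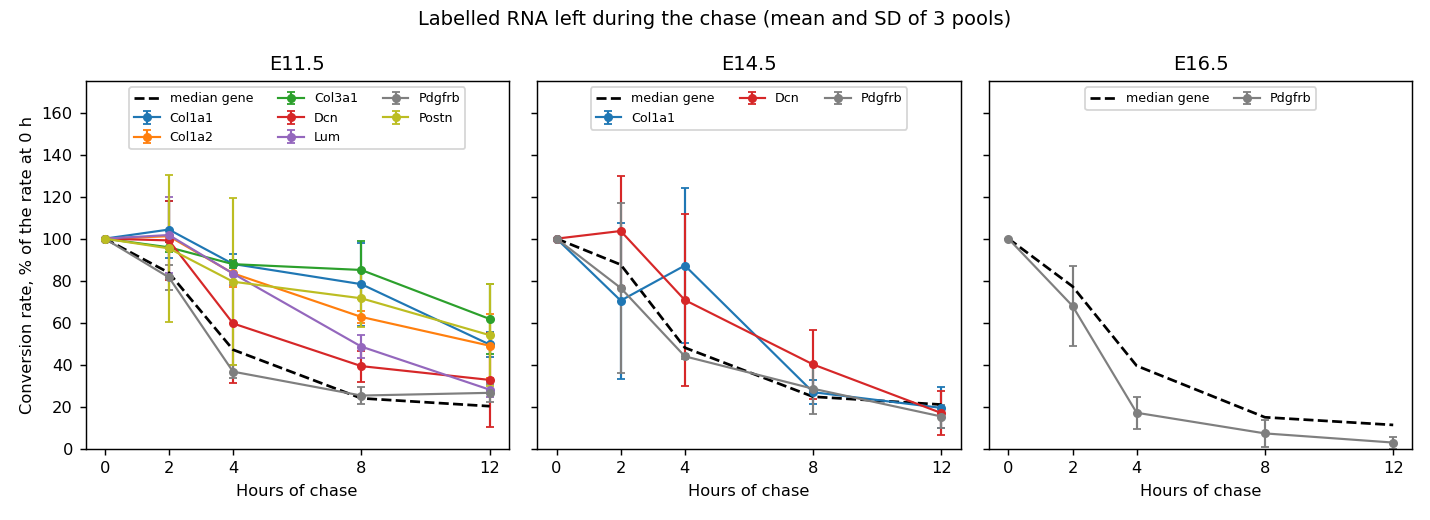
Conversion rate as a percentage of the rate at 0 h against hours of chase, as the mean of 3 pools with bars of 1 SD, for the genes with more than 500 covered Ts in all libraries of a stage; the dashed line is the median gene. No background was removed. At E11.5 the collagen genes stay above the median gene from 4 h on and Pdgfrb runs near it, and at E16.5 Pdgfrb runs below it.

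At the later stages most of these RNAs were too rare for a rate. Col3a1 at E14.5 kept 52.1, 106.7 and 56.2% of its 0 h rate at 12 h, against 21.7, 19.5 and 23.2% for the median gene. No background was removed from these shares either. These rates rested on 7 to 16 converted Ts per library at 0 h and 4 to 11 at 12 h, compared with 769 to 1450 at 0 h at E11.5, and only the direction against the median gene was shared by all pools. Col1a1 at E14.5 kept 30.7, 14.3 and 13.4%, so it lay above the median gene in 1 pool and below it in the other 2. At E16.5, Col1a1 had a half-life of 6.34 h (R2 0.982) in pool B, where its coverage passed, and Postn had 10.9 h in that pool. Col1a2 in the same pool kept 100.3% of its 0 h rate at 12 h and gave no half-life.

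Pdgfrb could be followed through all stages. Its level rose during the chase at E14.5, and the part of this rise in its rates was not tested. Its half-lives were 3.70, 4.73 and 3.84 h at E14.5, a mean of 4.09 ± 0.559 h, and 1.56, 2.85 and 2.46 h at E16.5, a mean of 2.29 ± 0.665 h. All 3 E16.5 values lay below all 3 E14.5 values. The Pdgfrb rates at 12 h rested on only 0 to 2 converted Ts per library at E16.5 and 2 to 6 at E14.5. The half-lives of all genes were also shorter at E16.5, so half-lives were scaled to z-scores within each pool before the test. On that scale Pdgfrb differed by -0.46 (limma, SE 0.25, adjusted p = 0.41) between E16.5 and E14.5 and did not pass, where 0.884% of 9505 genes did, and its unadjusted p was 0.10. In hours without scaling, the difference was -1.80 h (SE 0.42, adjusted p = 0.021), in a setting where 3620 genes passed. A background rate was also subtracted, the percentile 5 of rates at 12 h over genes with more than 10000 covered Ts. The z-score difference was then -0.18 (limma, SE 0.27, adjusted p = 0.79).

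The rate at 0 h is the share of a gene's covered Ts that read as converted after 20 h of labelling. How far it follows the share of new RNA, or uptake of the label by the cells, was not tested. The rate was set relative to that of the whole library, and Col3a1, Dcn and Pdgfrb had enough coverage in all 9 libraries. Col3a1, whose rate fell slowly at E11.5, stood at 101, 111 and 123% of the library rate at that stage in pools A, B and C. Pdgfrb stood at 106, 132 and 81.7% of the library rate at E11.5, 104, 73.4 and 85.1% at E14.5, and 135, 140 and 171% at E16.5. Its log2 label content was higher by 0.77 (limma, SE 0.20, adjusted p = 0.031) at E16.5 than at E14.5, where 17.1% of 12522 genes passed. With the pool letter as a replicate block the adjusted p was 0.076, and the call was also lost without E14.5 pool B or C or any E16.5 pool. Letters mark different embryos across stages, so this block pairs no embryos. In a quasi-binomial model of the conversion counts, fitted to these genes alone, Dcn passed at an unadjusted p under 0.05 and Pdgfrb did not. Col3a1 stood at 130, 107 and 149% at E14.5 and 235, 129 and 167% at E16.5, a difference of 0.43 (SE 0.22, adjusted p = 0.23). Dcn stood at 76.3, 115 and 74.0% and at 130, 123 and 112%, a difference of 0.49 (SE 0.18, adjusted p = 0.11).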

How the data were processed

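The 9 genes were followed in SLAM-seq libraries from 3 embryonic stages, 5 chase times and 3 pools per group. The authors mapped the reads with SlamDunk 0.4.3 to mm10 and counted over exons of GENCODE release 24. Deposited for each stage and pool were the covered-T count per gene, the CPM (reads scaled to library size), the conversion rate as a fraction of covered Ts and a half-life in hours (the ratio ln 2 over the fitted decay rate). The deposited half-lives were refitted here, and 99.99% of 115612 fits came within 1%. The CPM values of the authors were whole multiples of 1 read for 100% of values (tolerance 0.01 read), so reads were recovered.

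Expression was tested on covered-T counts, which exceed read counts because a read covers several Ts, with edgeR 4.0.16 (TMM, quasi-likelihood), over genes with more than 10 counts in every library of the comparison. Covered Ts of the same read are not independent counts, so SEs and p-values of genes with few reads may be too small. Half-life z-scores and label content were tested with limma 3.58.1, and DESeq2 1.42.0 was an alternative. All p-values were two-sided and adjusted over all genes (Benjamini-Hochberg). Log2 levels for likeness used CPM + 0.1 and genes with a mean of at least 1 CPM. Scripts were tested on simulated data. Exon lengths and positions came from GENCODE release 21 on GRCm38.

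Pool letters pair chase times within a stage, because 1 pool was divided over 5 wells, and deviations of the same pool at 0 and 12 h correlated by 0.11 to 0.43. Across stages letters mark different embryos (-0.082 to 0.099). The members and lists were chosen with earlier results of these data known. All 9 genes were named, plus the 3 most abundant genes per kb of each list, the 10 genes most like the 9, genes with no reads as examples, and PDGF pathway genes that passed a limit, chosen after their values were seen. Some genes of the lists are not reported here.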

Additional observations from a re-analysis of the deposited data

Results flagged for a closer look

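For 4 of the 8 genes tested (Foxc1 was too low) the change from 0 to 12 h of chase differed between stages when the difference itself was tested (edgeR quasi-likelihood with the pool as a block, adjusted over all genes). Of 17224 genes, 12.0% passed for E14.5 against E11.5, 3.9% for E16.5 against E14.5 and 16.3% for E16.5 against E11.5. For Dcn the log2 change of E14.5 minus that of E11.5 was -1.58 (adjusted p = 0.00033), and that of E16.5 minus E11.5 was -2.06 (adjusted p = 2.5e-05). It rose in all 3 pools at E11.5 and fell in all 3 pools at both later stages. For Pdgfrb the difference was 0.92 for E14.5 minus E11.5 (adjusted p = 8.1e-05) and -0.93 for E16.5 minus E14.5 (adjusted p = 0.00037). For Col1a2 the same differences were 0.86 (adjusted p = 0.0021) and -1.05 (adjusted p = 0.0029), on 9 to 29 reads per library at E14.5 and 0 h. The test counted covered Ts, several per read, so with so few reads the adjusted p-values of Col1a2 may be too small. For Lum the difference of E16.5 minus E11.5 was -0.93 (adjusted p = 0.029). The part of Gm42418 in the 12 h libraries of E11.5 was not tested.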

How the results depend on the processing

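The 9 genes stayed past 2-fold at E14.5 against E11.5 in every setting in which they were tested, except that some could not be tested on recovered reads. Of the genes called at E16.5 against E14.5 (5), 3 were called on recovered reads and 2 to 6 when single libraries were left out, the lowest without E16.5 pool B. Col1a2 and Twist1 had too few reads to be tested on recovered reads. Col1a1 turned sign with the replicate block (-0.048), and its change ran from -0.71 without E16.5 pool B to 0.51 without pool C. The cause was not tested. Between stages this block joins pools of different embryos, which holds for the half-life and label content tests too. For 12 h against 0 h, the E11.5 count of 2 was 7 with the replicate block, 6 as a slope over 5 times with the block, and 1 to 2 without single libraries. The E14.5 count of 2 was 1 with filterByExpr, 1 as a slope with the block, and 1 without any single library (Pdgfrb ended in 5 of 6, Dcn without 12 h pool B). The E16.5 count of 2 was 1 on recovered reads, 1 with filterByExpr and 1 to 4 without single libraries, 4 without 12 h pool B. At this stage Lum had too few reads to be tested on recovered reads. Comparing 2 h with 0 h was chosen after seeing the data and called 0 of the 9 at E14.5 and E16.5 without the block (at an unadjusted p under 0.05, Pdgfrb at E14.5, and Lum and Twist1 at E16.5) and 1 at each with it. Without single libraries, the 12 h change of Col1a1 at E11.5 ran from -0.60 to 0.0047 (without 0 h pool B), and that of Col3a1 at E16.5 from -1.52 to 0.47 (above 0 without 12 h pool A, 12 h pool C or 0 h pool B). Kept half-lives numbered 2 at E11.5 with R2 over 0.8, and 4 to 5 without single pools. At E14.5 they numbered 0 with covered Ts over 2000, 0 with R2 over 0.8, 3 with no R2 limit and 1 to 3 without single pools. At E16.5 they numbered 3 with covered Ts over 100, 0 over 2000 and 1 to 2 without single pools. The relative half-life count of 0 became 1 in hours without scaling. Over all genes, that test called 84, against 3620 in hours, 207 with R2 over 0.8, 44 on log2 hours and 0 with the replicate block, and the 12 h tests called 3498 at E11.5 and 2240 at E14.5, against 6400 and 3909 with the block. The label content count of 1 became 0 with covered Ts over 2000, 0 with the replicate block and 0 to 1 without single pools (0 without E14.5 pool C or any E16.5 pool, and Dcn in place of Pdgfrb without E14.5 pool B or in the quasi-binomial model). With 3 pools per stage, Foxc1 and Twist1 were limited by depth at the later stages.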
